A study of Mus musculus with 16 samples.

Results

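Individual cells labelled as neuronal and taken from the caudal ganglionic eminence (CGE) of mouse embryos were set against explant tissue labelled as CGE. The aim was to describe which transcripts that were bright in the tissue were also found in all, some or none of the cells. The comparison used 7 of the 16 arrays of the series: 4 arrays with 1 cell each and 3 arrays of explant RNA, chosen by their titles. Of the 24109 gene probes on an array, 958 were bright in the tissue and measured on all 4 cell arrays, and these were followed from cell to cell. The 4 cells are separate samples of unknown identity, not replicates of a condition, so values are given for each cell and no test was run between cells and tissue.

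All 7 samples came from the OF1 mouse strain at embryonic day 14 and were labelled with Cy5 alone. Each single cell was trapped in a microfluidic rotary mixer, lysed and reverse-transcribed there for 25 minutes from a poly(dT) primer, and its cDNA went through 40 cycles of template-switching PCR before labelling. Each explant array received 5 µg of total RNA that was reverse-transcribed from random hexamers with no amplification. The explant samples are labelled as CGE tissue, while their extraction protocol names telencephalon, so the dissected region is not certain. For comparison, 3 arrays of the same series held 10 pg of adult mouse forebrain RNA carried through the same mixer in 7 nL, with 20 minutes of reverse transcription and the same 40 cycles, and these are called microfluidic arrays of adult RNA. Cells and explants differed at once in amount of RNA, priming, amplification and labelling, and in the date entry and image letter code of the file headers. These cannot be told apart from the difference between a cell and a tissue.

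The CGE is a transient swelling of the embryonic ventral forebrain whose progenitors give rise to inhibitory interneurons that migrate into the cortex. Its young neurons switch on Dlx homeobox genes and the enzymes that make GABA, and at the same time the microtubule proteins of migrating cells, while progenitors close to the ventricle keep dividing and carry radial glia genes. An explant therefore holds progenitors, young neurons, vessels and blood, and a single cell is one of these.

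In template-switching PCR the reverse transcriptase adds bases at the end of its first strand, and a primer that pairs with them supplies the second site for amplification. The 2 primers given in the sample labels are shown because all cDNA measured from the cells passed through them. Capitals mark the end that is found in the template-switching primer alone, and the part in lower case is shared by both.
template-switching primer: aagcagtggtatcaacgcagagtACGCGGG
PCR primer: aagcagtggtatcaacgcagagt

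A probe was called found on an array where its foreground median intensity was above the local background median plus 2 background SD. By this limit 44.7%, 52.5%, 35.5% and 26.5% of gene probes were found on the arrays of cells 1 to 4, against 29.0%, 14.9% and 27.1% on the 3 explant arrays. Cells 1 to 3 share 1 date entry in the file headers and cell 4 has another, which is called scan session here. The image names of the explant slides carry another letter code than those of the cell slides. What the code stands for was not checked. The 257 spots printed for Gapdh, a glycolytic enzyme, show how far repeats of 1 probe can lie apart: their SD was 1.25 to 1.67 log2 units within a cell array and 0.845 to 1.14 within an explant array. Between 432 and 941 probes were saturated on a cell array, against 127 to 193 on an explant array. The number of arrays limits the precision of every value below.

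Among the markers of young neurons of this region, Tubb3, Dcx, Dlx2 and Sox11 were found in all 4 cells and on all 3 explant arrays. These calls depended on the detection limit: at 3 background SD Dcx was found in 3 cells, and with the 95th percentile of odorant receptor probes as the limit Tubb3 was found in 3 cells, Sox11 in 2, Dlx2 in 1 and Dcx in 0. Levels are given as the percentile of a probe among all gene probes of its array. Tubb3, the neuronal beta-tubulin, stood at 99.0, 98.8, 94.8 and 99.0 in cells 1 to 4, against 98.3, 98.2 and 98.4 on the explant arrays. Dcx, a microtubule-binding protein of migrating neurons, stood at 93.6, 92.9, 91.2 and 71.8 in the cells and at 98.6, 98.2 and 98.8 in the explants. Dlx2, a homeobox factor of the ganglionic eminence, stood at 85.0, 96.8, 83.1 and 94.4 in the cells and at 99.6, 99.2 and 98.7 in the explants. Dcx and Dlx2 were lower in every cell than in every explant, a separation that was not counted over all probes. Lower levels in cells were usual, as only 116 to 139 of the 958 bright probes lay above the mean explant level in a cell. Tubb3 was above every explant in cells 1, 2 and 4, where its probe was saturated, and below them in cell 3. Sox11, a transcription factor of young neurons, stood at 98.8, 77.2, 95.7 and 92.7 in the cells and at 99.8, 99.8 and 99.8 in the explants by its brighter probe, and by a second bright probe it was found in 3 cells.

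The same genes were also found in adult forebrain RNA carried through the same reaction. Tubb3, Dcx and Sox11 were found on all 3 microfluidic arrays, at percentiles of 94.2, 95.9 and 95.7 for Tubb3, 90.4, 93.2 and 92.4 for Dcx and 77.7, 83.2 and 73.2 for Sox11. Dlx2 was found on the 2 microfluidic arrays that measured it, at 92.1 and 89.8. Of the 9 young neuron markers of the ganglionic eminence that were checked, 5 to 7 were found in a cell, 8 or 9 on an explant array and 4 to 9 on a microfluidic array.

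The remaining identity genes were found in a few cells only. Gad2, 1 of the 2 GABA-synthesizing enzymes, was found in cells 1 and 3, with percentiles of 67.6, 73.8, 73.1 and 69.2 in cells 1 to 4 and 97.2, 95.7 and 97.3 in the explants. Gad1, the other enzyme, was found in cell 2 alone, with 54.5, 80.7, 39.8 and 32.8 in the cells and 90.3, 89.8 and 93.1 in the explants. By these probes cells 1 to 3 each showed 1 of the enzymes and cell 4 neither. Dlx5 was found in cells 1 and 2, with 50.8, 58.2 and 53.3 in the 3 cells that measured it, against 92.9, 93.4 and 95.4 in the explants. Dlx1 was found in cell 4 alone, with 21.8, 18.3 and 81.2 in cells 1, 3 and 4, against 97.9, 97.8 and 98.9 in the explants. For each of these 4 genes every cell was below every explant, a separation that was not counted over all probes. Nr2f2, a nuclear receptor used as a marker of the CGE, was found in cell 2 alone, at 14.5, 98.3, 7.76 and 40.4 in the 4 cells and 96.6, 96.4 and 97.3 in the explants, so only cell 2 reached the level of the tissue. Gad2 and Nr2f2 each have another probe, which was found in cell 2 alone for Gad2, so that cell 2 showed both enzymes by that probe, and in no cell for Nr2f2, and on no explant array for either. With the odorant receptor limit Gad1, Gad2, Dlx1 and Dlx5 were found in 0 cells and Nr2f2 in 1.

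Most transcripts that were bright in the tissue were found in at least 1 cell. Bright means found on all 3 explant arrays and in the top 5% of gene probes by the mean normalized explant level, which held 1196 probes, of which 1062 were found on all 3 explant arrays and 958 of those were measured in all 4 cells. Of the 958, 412 (43.0%) were found in all 4 cells, 377 (39.4%) in 1 to 3 cells and 169 (17.6%) in none. Over all 16858 gene probes measured on the 7 arrays, the shares were 20.7%, 42.8% and 36.5%. Over the 10685 probes found on no explant array they were 15.1%, 42.5% and 42.4%. The share found in all cells was thus higher in the bright set than in either background, while 1618 probes that the tissue did not show were found in all 4 cells as well. The limit itself separates close neighbours: the lowest 5 bright probes had a mean explant level of 13.93 log2 units and the highest 5 below the limit 13.92, and 3 and 2 of them were found in all cells.

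The share found in all cells grew with the level in the explants. It was 10.5% among probes up to the 25th percentile of explant level, 21.5% between the 50th and 75th percentiles, 36.7% between the 90th and 95th and 46.4% in the top 1%. The share found in no cell went the other way, with 51.4% up to the 25th percentile and 17.1% in the top 1%. Even among the 140 brightest tissue probes, 24 were found in no cell.

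**Figure D1:**
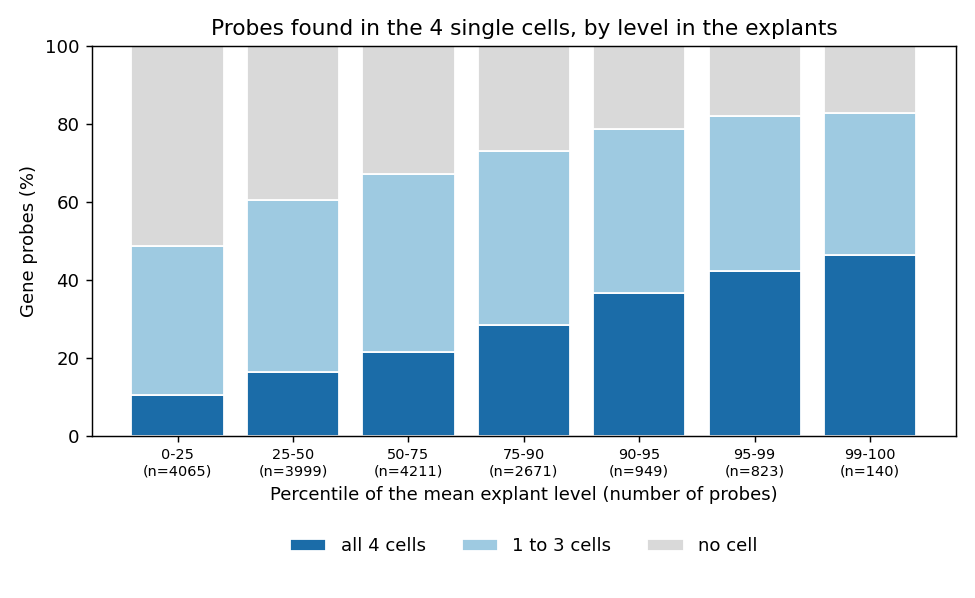
Stacked bars of the share of gene probes (%, vertical axis) found in all 4 cells, in 1 to 3 cells and in no cell, for 7 ranges of the mean explant level (percentile, horizontal axis), over probes measured on all 7 arrays. The dark part grows from 10.5% in the lowest range to 46.4% in the highest, and the grey part shrinks from 51.4% to 17.1%.

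The cells differed in how much of the bright set they showed. Cells 1 to 4 showed 69.7%, 72.1%, 62.2% and 52.6% of the 958 probes, a mean of 64.2% ± 8.79 (SD over 4 cells, as the spread between cells). The order of the cells was the same for probes that no explant showed, of which 40.9%, 47.8%, 30.9% and 22.6% were found. Cell 2 was the highest and cell 4 the lowest in both sets. The microfluidic arrays of adult RNA showed 79.0%, 68.5% and 79.3% of the bright probes, and 45.5%, 32.7% and 49.9% of those on no explant array.

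Odorant receptor probes were found often in the cells. These receptors are expressed in the nose and serve here as probes for genes not expected in the forebrain. They were found at 56.3%, 68.1%, 46.2% and 33.5% on the arrays of cells 1 to 4 and at 13.3%, 6.32% and 13.9% on the explant arrays, and the microfluidic arrays showed 62.8%, 50.1% and 65.3%. Of 523 odorant receptor probes measured on all 7 arrays, 27.9% were found in all 4 cells and 24.3% in none. Of the 17 that were bright in the tissue, 14 were found in all 4 cells and 0 in none. The counts of bright probes moved with the limit used. With the 95th percentile of odorant receptor probes on each array as the limit, 71 bright probes (7.52%) were found in all cells and 657 in none. With the 95th percentile of buffer spots, 768 (79.8%) were found in all cells and 9 in none. What sets the odorant receptor signal on amplified arrays was not tested.

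**Figure D2:**
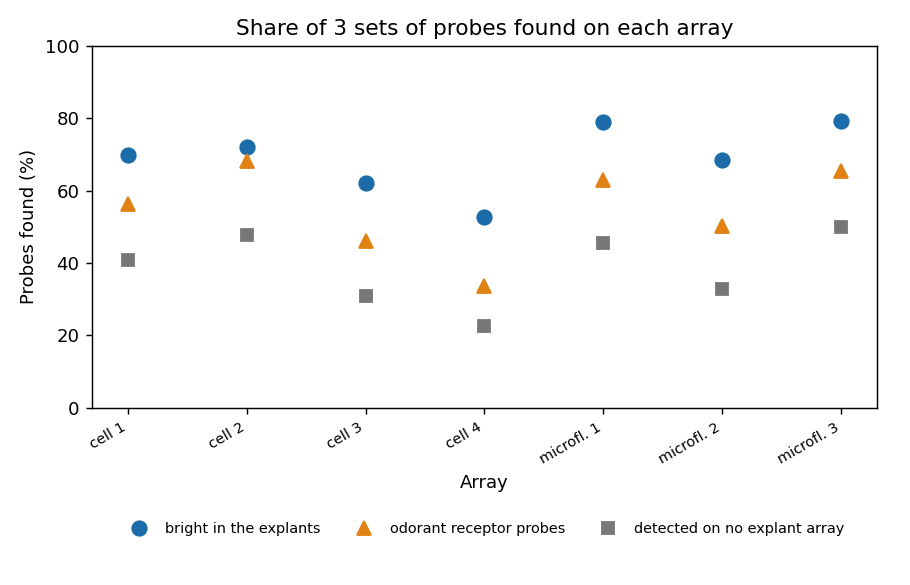
Share of probes found (%, vertical axis) on the arrays of the 4 cells and on the 3 microfluidic arrays of adult RNA (horizontal axis), for probes bright in the explants (circles), odorant receptor probes (triangles) and probes found on no explant array (squares). Bright probes lie highest on each of the 7 arrays, and all 3 sets are lowest in cell 4.

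Among bright genes with a plain symbol, the 10 brightest in the tissue that were found in all 4 cells had varied roles. Tubb5, a widely expressed beta-tubulin, had net intensities of 18404, 64412, 12842 and 8846 in cells 1 to 4, against 63980.0, 63577 and 64025 in the explants, where it was saturated. Onecut3, a homeobox factor, had 9453, 21708, 7137 and 4323 in the cells and 63518, 63282 and 63962 in the explants. Rad9a, a subunit of the DNA damage checkpoint clamp, had 4834, 3359, 2814 and 3328 in the cells and 63386, 62262 and 63946 in the explants. These 3 genes were found everywhere but were below the saturated explants in the cells, apart from Tubb5 in cell 2, which was saturated too. Abcb8, a mitochondrial transporter, and the odorant receptors Olfr152 and Olfr887 were saturated in all 4 cells as well as in at least 2 explants, which leaves no order between the groups. They also had net intensities of at least 64055 on each of the microfluidic arrays. The histone gene H4f16, Ttc21a, which encodes a protein of tetratricopeptide repeats, Tagap, a gene active in T cells, and Sox11, described above, complete the 10, and all 10 were found on all 3 microfluidic arrays.

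Of the bright probes found in some cells, 116 were found in 1 cell, 88 in 2 and 173 in 3. The most frequent pattern was cells 1, 2 and 3 without cell 4, with 124 probes, against 36 for cells 1, 2 and 4, 7 for cells 1, 3 and 4 and 6 for cells 2, 3 and 4. Cell 4, which had the lowest share of found probes and its own scan session, was thus the cell most often missing. Without cell 4, 541 of 975 bright probes (55.5%) were found in all 3 remaining cells. A single cell alone showed 27 probes for cell 1, 49 for cell 2, 19 for cell 3 and 21 for cell 4.

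Some of the brightest tissue genes were carried by 1 cell. Htr6, a serotonin receptor, had net intensities of 223, -145, -86 and 9118 in cells 1 to 4 and 63204, 62104 and 63788 in the explants, and the microfluidic arrays had -119.5, -7 and -72. Only cell 4 was above background for it, among the cells and the microfluidic arrays. H3f3a, which encodes the replication-independent histone H3.3, had 47887, 183, -24 and 1015 in the cells and 50426, 41696 and 63808 in the explants, with cell 1 at the level of the tissue. Sccpdh, a gene of the saccharopine dehydrogenase family, had 862, 27052, 576 and 2145 in the cells and 63275, 62250.0 and 63754 in the explants, and only cell 2 showed it. Tmsb10, an actin-binding thymosin of young neurons, had 469.5, 493, 2886 and 298 in the cells and 63997, 47719.5 and 45395 in the explants, and only cell 3 showed it. The other genes named for 1 cell were nearer to the limit, such as Rpl30 in cell 4, with percentiles of 43.4, 25.7, 53.5 and 74.4 in cells 1 to 4.

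The genes bright in the tissue and found in some cells included abundant transcripts of every cell. Malat1, a nuclear non-coding RNA, had net intensities of 2228, 6446, 874 and 1540.0 in the cells and 63359, 62585 and 63866 in the explants and was found in 2 cells, and by its other bright probe in none. Ubb, a ubiquitin gene, had 2236, 2186, 1070.0 and 3746 in the cells and 63810.0, 63408 and 63978 in the explants and was found in 3 cells by this probe and in all 4 by the other. Tuba1b, an alpha-tubulin, had 5506, 17789, 1113 and 689 in the cells and 63700.0, 47681 and 64030.0 in the explants and was found in 2 cells. All cells lay below all explants for these 3 genes. Lower is the usual direction among bright probes, and the full separation was not counted over them. Hmmr, a protein of the mitotic spindle, was found in 2 cells as well, and the antioxidant enzyme gene Cat in 2.

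Genes bright in the tissue and found in no cell were led by Rmrp, the RNA of the RNase MRP complex. Its net intensities were 436, 46, 176 and 250.0 in cells 1 to 4 and 63787, 63203 and 63982 in the explants, where it was saturated, and it was not found on the microfluidic arrays. H4c6, a replication-dependent histone H4 gene, had 965, 1395, 479 and 446 in the cells and 63769.5, 63049 and 63916 in the explants. Rbm27, an RNA-binding protein gene, had 528, 115, -62 and 36 in the cells and 63720.0, 63132 and 63816 in the explants. Cells and explants were far apart for each of them: the mean explant level was at least 26.0-fold above the cells for Rmrp, at least 25.9-fold for H4c6 and at least 25.8-fold for Rbm27. Each bound sets an undetected cell at the lowest found signal of its array, or at its own signal where that is higher, and takes the cell with the smallest difference. The genes were chosen as brightest in the tissue and below the limit in every cell, so a wide gap is fixed by the choice. Level differences also moved with the normalization, as given in the last section.

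Of the 149 named genes that were bright and found in no cell, the next 9 by explant level were Vps13a, a lipid transfer protein, Mon2 and Snx27, which act in endosome traffic, Pigt, which attaches GPI anchors, Sgo2a, a shugoshin that protects centromeric cohesion, Slitrk1, a synaptic membrane protein, Spaar, Als2cl and Tcte3. Their bounds ran between 18.8-fold for Tcte3 and 24.3-fold for Vps13a. Snx27 had net intensities of 218, 79.5, 21 and 148 in the cells and 62745, 61109 and 63642 in the explants, with every cell near the background. Spaar had 1309.5, 904, 709 and 1332 in the cells and 63276, 61878 and 63934 in the explants, and it was found on all 3 microfluidic arrays, at 4039, 1854 and 27084. Rbm27 and Vps13a have other probes that were not bright in the tissue, and 1 probe of each gene was found in 1 cell.

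Genes of young neurons were bright in the tissue and found unevenly in the cells. Of 37 genes of this list on the array, 33 were measured in all cells: 10 (30.3%) were found in all 4 cells, 18 in some and 5 in none, against 21.7%, 42.8% and 35.5% over all 15564 named genes. Among the 21 bright members 7 were found in all cells, 10 in some and 4 in none, against 42.5%, 40.1% and 17.4% of 856 bright named genes. The share found in all cells was therefore above the background over all members and below it over the bright ones. Odorant receptor genes, not expected in the forebrain, had 28.4% of 582 measured members and 82.4% of 17 bright ones found in all cells. The higher share over all members is thus not particular to young neuron genes. Nnat, an imprinted gene of developing brain, was found in all 4 cells at 72.7, 81.9, 72.5 and 77.5, against 99.6, 99.5 and 99.9 in the explants. Cd24a, a surface protein of young neurons, was found in cells 1 to 3, with 81.4, 84.3, 88.2 and 67.1 in cells 1 to 4 and 100.0, 99.3 and 99.4 in the explants. Cells 1 to 4 showed 18, 23, 18 and 11 of the 33 measured members. Of all measured gene probes the same cells showed 47.2%, 53.4%, 37.9% and 29.0%.

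Genes of ganglionic eminence and interneuron identity were mostly found in some cells. Of 25 measured genes, 4 were found in all 4 cells, 16 (64.0%) in some and 5 (20.0%) in none, against 42.8% and 35.5% of all named genes. Dlx2 was the 1 bright member of the 7 (14.3%) that was found in all cells, against 42.5% of bright named genes. Both shares found in all cells were thus below those of named genes. Cells 1 to 4 showed 14, 16, 13 and 6 of the 25 measured members. Their order was that of the shares of all measured gene probes, 47.2%, 53.4%, 37.9% and 29.0%. The median percentile of the list was 64.1 in the cells and 83.7 in the explants, against 51.6 and 53.7 over all named genes.

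Progenitor genes differed among themselves. Of 19 measured genes, 5 (26.3%) were found in all cells, 8 in some and 6 (31.6%) in none, near the 21.7%, 42.8% and 35.5% of all named genes. Fabp7, a fatty acid binding protein of radial glia, stood at 20.4, 2.69, 1.09 and 5.22 in cells 1 to 4 and at 98.3, 98.3 and 99.0 in the explants, and it was found in no cell. Sox3, a transcription factor of neural progenitors, stood at 47.8, 17.2, 41.2 and 18.7 in the cells and at 94.9, 96.1 and 95.2 in the explants and was found in no cell either. Both were thus found on the explant arrays and below the limit in every cell. Sox1, of the same family, stood at 90.9, 80.0, 89.7 and 93.0 in the cells and 96.3, 97.0 and 98.0 in the explants, and was found in all 4 cells. All cells were below all explants for the 3 genes, a separation that was not counted over all probes. Of the progenitor markers Nes, Vim, Sox2, Hes5 and Fabp7, Nes alone was found in any cell, in cells 1 to 3, and it was found in 0 cells at 3 background SD. Hes5 was not measured in cell 2 and Sox2 not in cell 3. Explants 1 and 3 showed all 5, explant 2 showed Fabp7 alone, with Sox2 not measured, and the microfluidic arrays showed 2 or 3.

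Cell cycle genes were bright in the tissue in few cases and found in part of the cells. Of 30 measured genes, 4 (13.3%) were found in all 4 cells, 15 (50.0%) in some and 11 (36.7%) in none, against 21.7%, 42.8% and 35.5% of all named genes. Of the 5 bright ones none was found in all cells. Mki67, a nuclear protein of dividing cells, stood at 39.9, 19.1, 11.5 and 12.6 in cells 1 to 4 and at 95.0, 96.1 and 95.2 in the explants and was found in no cell. Cdk4, a kinase of the G1 phase, stood at 15.3, 33.4, 40.5 and 38.9 in the cells and at 97.8, 97.8 and 98.5 in the explants, again with no cell above background. Ccnb1, the cyclin of mitosis, stood at 67.8, 42.3, 73.8 and 10.2 in the cells and at 93.8, 94.2 and 94.3 in the explants, and cells 1 to 3 showed it while no microfluidic array did. Top2a, a topoisomerase of dividing cells, was found in cells 1 to 3 too, and on all 3 microfluidic arrays. Cell 4 showed none of these 4 genes, but it showed others, such as Aurkb, Ccnd1 and Cdk1. Cells 1 to 4 showed 14, 17, 11 and 9 of the 30 measured members. Their order was that of the shares of all measured gene probes, 47.2%, 53.4%, 37.9% and 29.0%. With the odorant receptor limit Ccnb1 and Top2a were found in 0 cells.

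**Figure D3:**
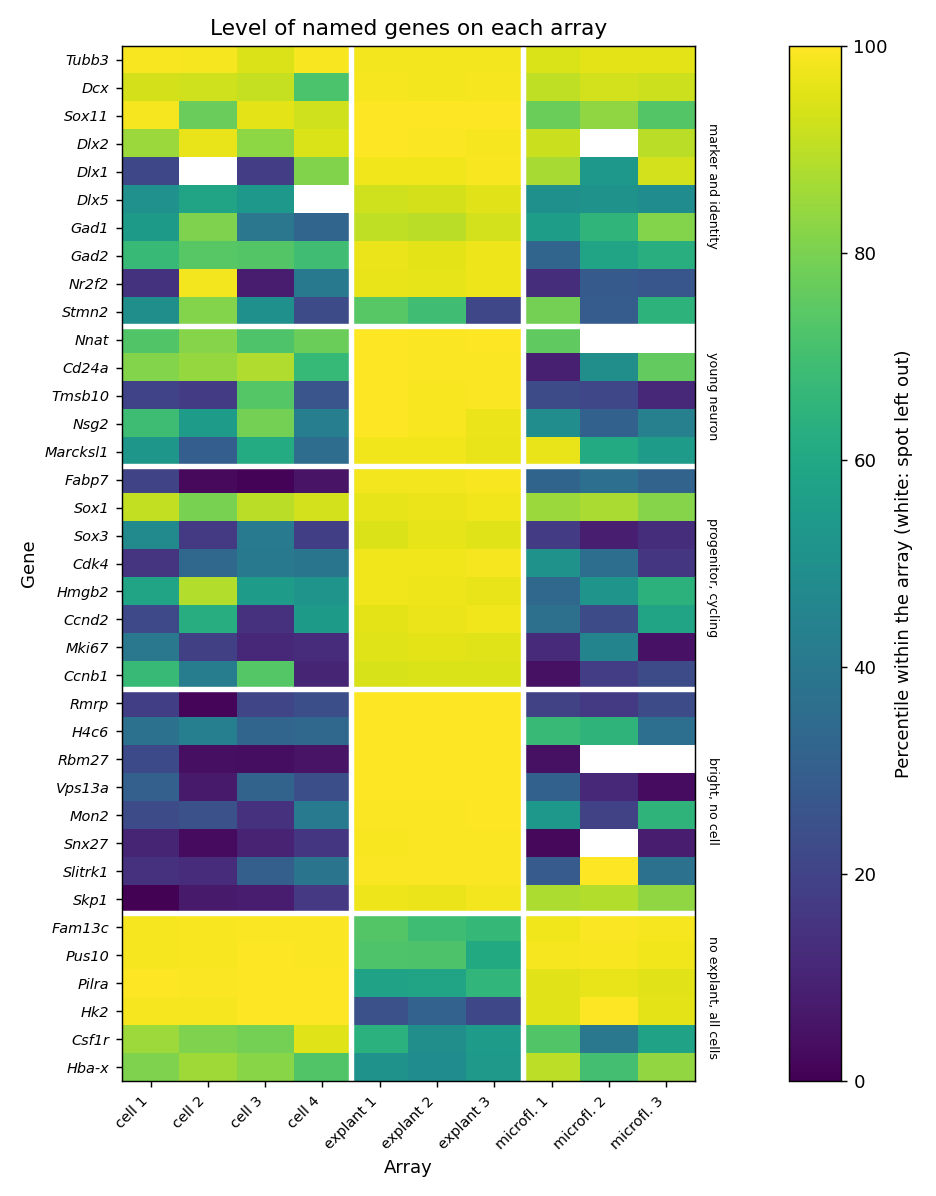
Level of 37 named genes (rows, grouped by role) on the arrays of the 4 cells, the 3 explants and the 3 microfluidic arrays of adult RNA (columns), as the percentile within the array from 0 (dark) to 100 (yellow). Tubb3, Dcx, Sox11 and Dlx2 are high in cells, explants and adult RNA, Fabp7, Mki67 and Rmrp are high in the explants and low in cells and adult RNA, and Fam13c, Pus10, Pilra and Hk2 are highest on the amplified arrays.

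Bright ribosomal protein genes were less often found in all cells than bright genes in general. Of 49 bright cytoplasmic ribosomal protein genes, 15 (30.6%) were found in all 4 cells, 21 (42.9%) in some and 13 (26.5%) in none, against 42.5%, 40.1% and 17.4% of bright named genes. Over all 81 measured members the shares were 24.7%, 45.7% and 29.6%, against 21.7%, 42.8% and 35.5% of all named genes, so the difference in the share found in all cells went the other way. Rpl17, a protein of the large subunit, stood at 0.71, 13.3, 10.6 and 49.2 in cells 1 to 4 and at 99.2, 99.1 and 99.3 in the explants and was found in no cell, while its other bright probe was found in cell 1. Over all measured members, of 54 translation factor genes, 5 (9.26%) were found in all cells and 24 (44.4%) in none, and of 58 genes of oxidative phosphorylation 10 (17.2%) and 27 (46.6%). Both lists lay below the share of all named genes found in all cells and above that found in none, and 8 and 7 of their members were bright. Eef2, the factor that moves the ribosome along, stood at 26.4, 18.9, 40.6 and 29.0 in the cells and at 98.9, 98.9 and 99.0 in the explants and was found in no cell.

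Of the lists, glycolysis had the highest share of genes found in all cells. Of 16 genes on the array, 13 were measured in all 4 cells. Of these 7 (53.8%) were found in all 4 cells and 1 in none, against 21.7% and 35.5% of all named genes. Over the 16, Pfkm, Pgam1, Pgk1 and Pkm were found in no cell, though not all of them were measured in every cell. Of 4 bright genes 3 were found in all cells, against 42.5% of bright named genes. Ldha, a lactate dehydrogenase subunit, stood at 99.0, 99.3, 97.6 and 83.0 in cells 1 to 4 and at 97.5, 96.9 and 99.3 in the explants. Gapdh, which is not counted in the list, stood at 91.7, 93.8, 88.0 and 84.7 in the cells and at 95.8, 95.9 and 95.9 in the explants. Ldha was thus at the explant level in cells 1 to 3 and below it in cell 4, while Gapdh was below every explant in every cell. Pkm, a pyruvate kinase gene, stood at 6.95, 19.9 and 34.1 in the 3 cells that measured it. In the explants it stood at 97.1, 97.4 and 97.4. At the odorant receptor limit Ldha was found in 3 cells and Gapdh in 0. With 13 genes the share of this list rests on few members.

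Histone mRNAs of dividing cells end in a stem-loop in place of a poly(A) tail, and the cells were primed from poly(dT). Of 16 measured replication-dependent histone genes, 4 (25.0%) were found in all 4 cells, 5 in some and 7 (43.8%) in none, against 21.7%, 42.8% and 35.5% of all named genes, and of 6 histone genes with poly(A) mRNA 1, 3 and 2. H2ac22 was found in all cells at 92.7, 95.6, 96.9 and 96.6, against 99.8, 99.7 and 99.6 in the explants, and H4c6 in none at 37.3, 43.1, 32.6 and 33.8, against 100.0, 99.8 and 99.9. The histone genes therefore fell on both sides within each kind. Of 33 measured genes of splicing and RNA binding 24.2% were found in all cells and 30.3% in none, near the share of all named genes. Of the 16 bright ones 5 were found in all cells and 5 in none, against 42.5% and 17.4% of bright named genes, and for chaperones 2 of 7 bright genes were found in all cells and 2 in none.

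**Figure D4:**
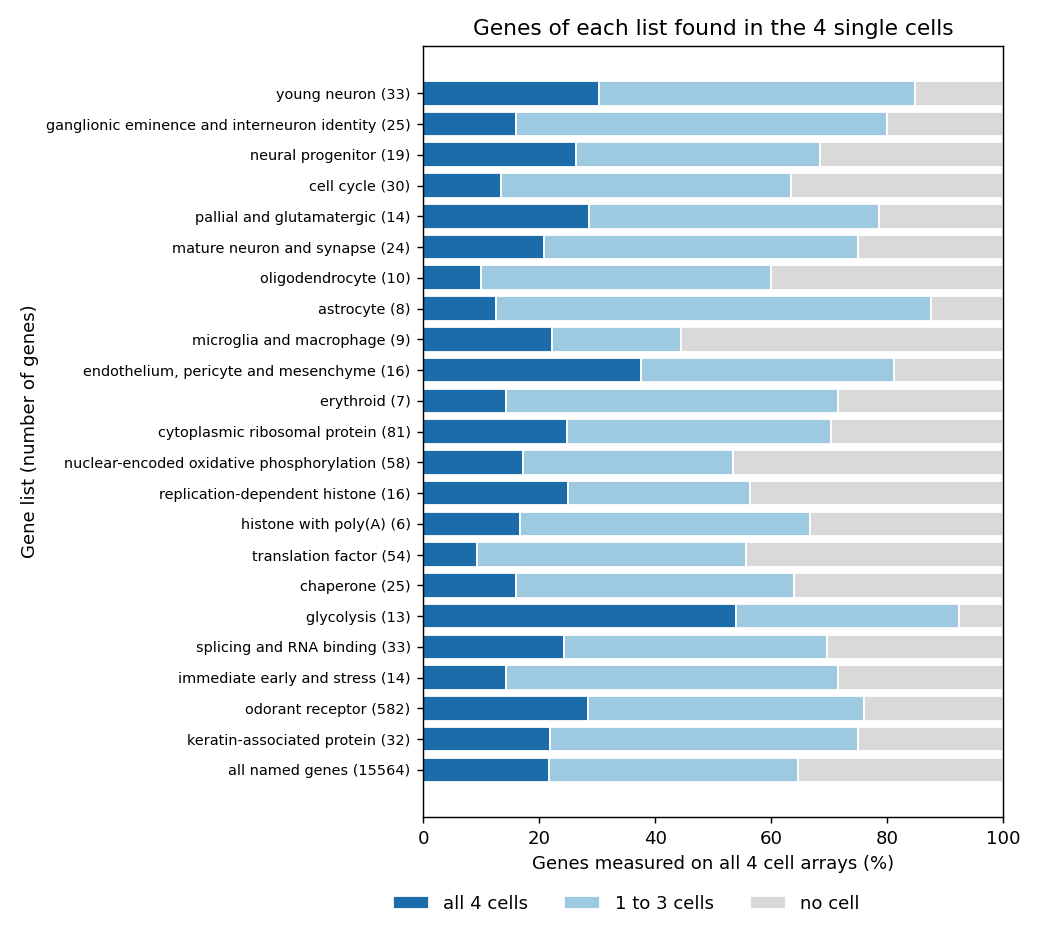
Share of the genes of each list (%, horizontal axis) found in all 4 cells, in 1 to 3 cells and in no cell, over genes measured on all 4 cell arrays (number in brackets, lists down the page), with all named genes at the bottom. Glycolysis has the largest dark part (53.8%) and translation factors the smallest (9.26%), against 21.7% for all named genes.

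Markers of other cell types were found in the cells at various levels. Of the microglia markers C1qa, C1qb, Csf1r and Aif1, Csf1r alone was found in any cell, and it was found in all 4 cells and on no explant array, at 85.2, 80.7, 79.2 and 94.9 in the cells and 63.9, 49.3 and 54.9 in the explants. C1qa, which microglia secrete, was found on all 3 explant arrays at 83.5, 89.4 and 94.9 and in none of the 3 cells that measured it. The summed net intensity of the 4 microglia markers was 5767 to 18537 in the cells and 9268 to 14410 in the explants. For the mesenchyme markers Col1a1 and Col3a1 it was 8156 to 27362 in the cells and 2924 to 4294 in the explants. Col3a1 was found in all 4 cells and on all 3 microfluidic arrays but on no explant array.

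Vessel, blood and pallial genes were found in the cells to differing extents. Of 16 measured genes of the wider list of endothelium, pericyte and mesenchyme, 6 (37.5%) were found in all 4 cells, against 21.7% of all named genes, among them Cdh5, Esam and Vwf. Of the vessel markers Pecam1, Cldn5, Kdr and Pdgfrb, Kdr was found in cells 1 to 3 and Pdgfrb in cell 2, and their summed net intensity was 2209 to 45538 in the cells and 704.5 to 4873 in the explants. Of 5 erythroid markers, cells showed 1 to 4 and explants 2 or 3, with summed net intensities of 9822 to 25949.5 in the cells and 12864 to 23389 in the explants. Hba-x, an embryonic globin gene, was found in all 4 cells at 80.6, 85.7, 82.4 and 72.8 and on no explant array, where it stood at 51.0, 48.6 and 53.8. The pallial markers Eomes, Neurod2 and Tbr1 were found in cells 1 to 3, Neurod6 was found in no cell, and cell 4 showed none of the 4. Of the wider pallial and glutamatergic list 4 of 14 measured genes (28.6%), Neurog1, Slc17a6, Slc17a7 and Bhlhe22, were found in all 4 cells, cell 4 included. With the odorant receptor limit Csf1r, Col3a1, Hba-x and Kdr were found in 0 cells. Mbp, an oligodendrocyte marker, was found in cells 3 and 4 and on no explant array, and the astrocyte markers Gfap in no cell and Aqp4 in cell 2. No cell was given a cell type from these markers, and the part of these genes in the counts above was not tested.

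A set of genes was found in all 4 cells and on no explant array. Hk2, a hexokinase of glycolysis, had net intensities of 64274, 64459, 64528 and 64465 in cells 1 to 4 and 136, -422 and 269 in the explants. Pilra, an inhibitory receptor of myeloid cells, had 64503, 64560.5, 64503 and 64572 in the cells and 1552, 447 and 1793 in the explants. Fam13c had 64264, 64474, 64456 and 64428 in the cells and 2943, 1048 and 1848 in the explants. All cells were saturated for these genes and for Pus10, Neurl3 and Lipn, while no explant was above the limit. The microfluidic arrays of adult RNA had 48786, 64731 and 60363 for Hk2, 53247, 46552 and 56040.0 for Pilra and 64515, 64684 and 64653 for Fam13c. Of the 1618 probes found in all cells and on no explant array, 1382 were measured on the 3 microfluidic arrays and 1164 of these (84.2%) were found on all 3.

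Within the bright set, levels in a cell and in the tissue were nearly unrelated in rank. Across the 958 bright probes the rank correlation of a cell with the mean explant level was 0.0659, 0.0425, 0.0457 and 0.0690 for cells 1 to 4, and single explants gave values between -0.0238 and 0.121. After background correction and quantile normalization, the median difference of the bright probes from their mean explant level was -2.80, -3.09, -2.81 and -2.84 log2 units in cells 1 to 4. These probes were chosen for their explant level, so a lower level in the cells is partly fixed by the choice and is given as a description. The choice also narrows the range of explant levels, which can lower a rank correlation in advance. Pairs of explants had 0.6545 to 0.8895 in this set. Over all 16858 measured probes the cells had 0.255 to 0.298 with the mean explant level. Of the 958 probes, 33 were above the mean explant level in all 4 cells. Across the 2461 probes found on all 3 explant arrays, the rank correlation of a cell with the mean explant level was 0.155, 0.117, 0.127 and 0.144 for cells 1 to 4. Probes on 1 array share its labelling and hybridisation and are not independent, so these values have no p.

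Rank correlations of the cells were higher with each other and with the adult RNA than with the tissue. Over the same probes the rank correlation was 0.635 to 0.830 between 2 cells, 0.638 to 0.755 between a cell and a microfluidic array of adult RNA, and 0.776 to 0.916 between 2 explants. The microfluidic arrays had 0.180 to 0.184 with the mean explant level. Cells 1 to 3, of 1 scan session, had 0.756 to 0.830 with each other and 0.635 to 0.678 with cell 4. Cells and microfluidic arrays share the mixer, the template-switching PCR and the letter code of the image names, and the part of each in these values was not tested.

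**Figure D5:**
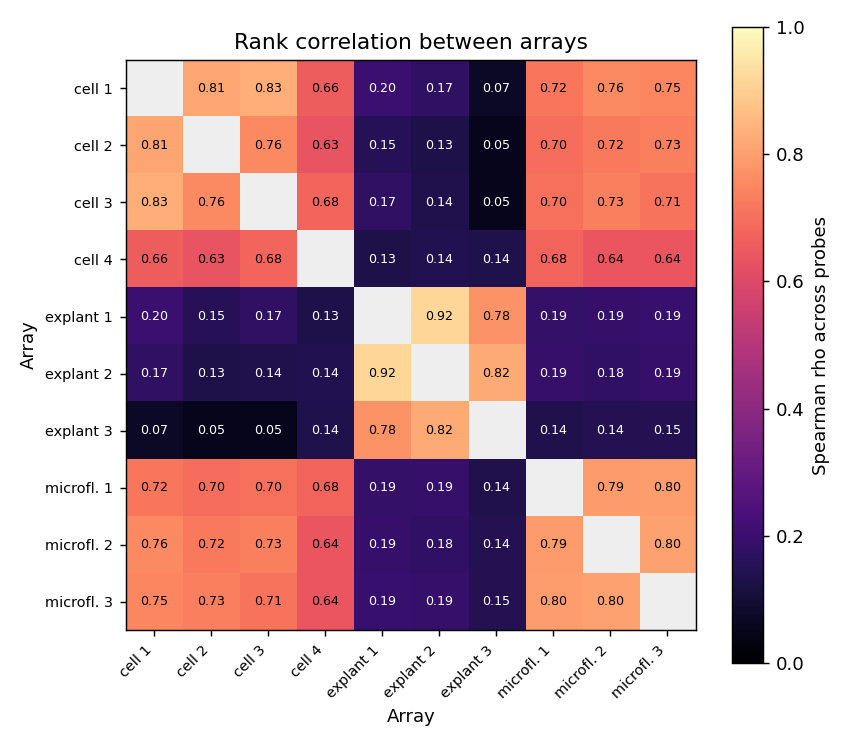
Spearman rank correlation between the arrays of the 4 cells, the 3 explants and the 3 microfluidic arrays of adult RNA (both axes), across 2461 probes found on all 3 explant arrays. Pairs of cells and pairs of a cell with adult RNA have values of 0.635 to 0.830, while cells with single explants have values between 0.0527 and 0.203.

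Bright probes found in all cells were nearly all found in the adult RNA as well. Of the 412 bright probes found in all 4 cells, 374 were measured on the 3 microfluidic arrays, and 353 of these (94.4%) were found on all 3 and none was missing from all 3. Of the 169 found in no cell, 159 were measured there, and 76 (47.8%) were found on no microfluidic array and 22 (13.8%) on all 3. Leaving out the probes found on all 3 microfluidic arrays left 59 of 398 bright probes (14.8%) in all 4 cells and 147 (36.9%) in none.

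The exceptions were few and are named here after their values were seen. Only 8 bright probes were found in 3 or 4 cells and on no microfluidic array, or in 4 cells and on at most 1, and 6 of them have a plain symbol. Nsg2, an endosomal protein of neurons, was found in cells 1 to 3 at 68.9, 54.8, 79.2 and 43.0 in cells 1 to 4, against 99.7, 99.0 and 96.9 in the explants, and stood at 49.0, 30.9 and 43.5 in the adult RNA. Psmb7, a proteasome subunit, was found in cells 1, 3 and 4 at 99.0, 30.4, 84.7 and 83.5, against 96.3, 96.6 and 96.2 in the explants and 32.1, 31.9 and 32.8 in the adult RNA. Pfdn5, a prefoldin subunit, and Mrps30, of the mitochondrial ribosome, were found in 3 cells each, and Dnajc5, a chaperone of synaptic vesicles, and the transcription factor gene Usf2 in 4. By these probes at least 3 cells were above background where at most 1 adult array was, but another probe of Pfdn5 was found in all 4 cells and on all 3 adult arrays, saturated on each.

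In the other direction, 22 bright probes were found in no cell and on all 3 microfluidic arrays, 19 of them with a symbol. Skp1, a subunit of ubiquitin ligases, had net intensities of -43, 192, -4 and 155 in the cells, 22785, 14544 and 18064 in the explants and 14339, 9119 and 10176 in the adult RNA. Pdcd4, an inhibitor of translation, had 44, 830.0, 70.5 and 656 in the cells, 12203, 8095 and 8274 in the explants and 64570.5, 64688 and 64794 in the adult RNA. For both, cells lay near background while all tissue and adult arrays were well above it. Marcksl1, an actin regulator of growing neurons, was of this kind at 53.0, 29.9, 61.4 and 35.6 in the cells, 97.7, 97.7 and 96.5 in the explants and 96.7, 61.1 and 55.2 in the adult RNA, though the last 2 adult values were close to those of cells 1 and 3.

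Genes found in all cells had the shortest median length on the chromosome. For bright genes the median span, taken from RefSeq GRCm38.p6, was 11.96 kb for 364 genes found in all cells, 17.3 kb for 343 found in some and 16.3 kb for 149 found in none. The quartiles overlapped widely, at 4.28 and 32.8 kb for genes in all cells and 4.404 and 37.5 kb for genes in none. Over all genes found on the 3 explant arrays the medians were 16.1 kb for genes in all cells, 20.2 kb for some and 24.9 kb for none. Span includes introns and is not the length of the transcript.

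Different probes of 1 gene did not always give the same class. Of 20 genes with at least 2 bright probes, 7 were found in the same number of cells by all of them. For Arpc4, a subunit of the actin-nucleating complex, and Sympk, a scaffold of mRNA 3' end processing, 1 probe was found in all 4 cells and another in none.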

How the data were processed

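RNA was measured on 16 spotted mouse oligonucleotide arrays, of which 4 single cells, 3 explants and 3 microfluidic arrays of adult RNA were used. Per the file headers, the deposited intensity files hold raw foreground and background medians of 25344 spots at 635 nm, written by Mapix 2.4.4 for cells and 2.5.1 for explants, neither background-subtracted nor normalized, and stopping at 65535. The spot marks that the authors deposited beside them (kept, not found, bad) carry no unit, and their meaning was read by the usual convention of such files. The series table holds deposited signal values, whose making the sources used here do not give, and served as an alternative. Bad spots were dropped, except saturated ones. Intensities were corrected by normexp (offset 50), quantile-normalized over 16 arrays in limma 3.58.1 (R 4.3.3) and taken to log2. Names came from platform accessions and RefSeq GRCm38.p6 (21001 of 24109 probes, and 201 with conflicting names were left unnamed). A gene is represented by its probe with the highest explant mean. Genomic span replaced the planned protein length, for which no table was used here. The counting of classes was run on simulated spots set well above or well below the limit, which cannot show whether calls on these arrays are right. Named genes are the brightest in the tissue within each class, the brightest members of each list, marker genes, and genes brightest in all cells while on no explant. A few genes that these rules name are not reported here. The bright set, lists and rules were chosen with earlier results of these data known. Alternatives changed the detection limit, the definition of bright, normalization, spot marks and the arrays included. Nothing in the labels says from which animals the samples came.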

Additional observations from a re-analysis of the deposited data

Results flagged for a closer look

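Among the 4 cells, 1 cell stood apart from the other 3 by more than the 95% limit of Dixon's gap test in 16 of the 202 results tested, and chance flags about 1 in 20 groups. By the number of list members found, cell 2 was apart with 6 of 8 measured astrocyte genes, against 3 in each other cell. It was also apart with 10 of 14 measured immediate early and stress genes, against 4, 4 and 3. Cell 2 also showed the largest share of all measured gene probes, 53.4%, against 47.2%, 37.9% and 29.0% in cells 1, 3 and 4. Cell 2 was highest on the normalized log2 scale for Atp5md (11.84) and Hmgb2 (12.94) and lowest for Rmrp (7.59). Cell 4 was highest for Jun (11.12), Macroh2a1 (15.32), Pfdn5 (15.58), Ubb (12.55) and Zfand2b (11.49) and lowest for Mrps30 (7.57), Neurod2 (10.67) and Usf2 (13.02). Cell 1 was highest for Rbm27 (9.28), and Rbm27, Rmrp, Jun and Zfand2b were below the detection limit in every cell, so their values are signals not above background. Cell 3 was lowest for Tubb3 (14.05) and Neurl3 (15.68), and the probe for Tubb3 was saturated in the other 3 cells and that for Neurl3 in all 4. The scan session of cell 4 differed from that of the other cells, and its part in these values was not tested.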

How the results depend on the processing

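Counts of bright probes depended on the detection limit and on the definition of bright. Found in all 4 cells were 768 bright probes with the buffer-spot limit, 71 with the odorant receptor limit, 65 with bright as the top 1%, 713 as the top 10%, 920 as all probes on all 3 explants, and 59 without probes on all 3 microfluidic arrays, an alternative chosen after seeing the data. Found in no cell were 9, 657, 24, 348 and 497 in the same order up to the fifth, and 256 with spot marks ignored. The mean share per cell was 91.4% with the buffer-spot limit and 18.1% with the odorant receptor limit. The rank correlation of a cell with the explants, a median of 0.135, was 0.163 with the buffer-spot limit, 0.104 with marks ignored and 0.284 over all measured probes. The median level difference of -2.82 log2 units was -2.37 without background correction, -1.86 with median centring and -1.41 with the deposited values. The cause of these moves was not tested, apart from the size of the set. Leaving out 1 array in turn gave 411 to 541 probes in all cells, 173 to 231 in none, mean shares of 60.6% to 67.8% and correlations of 0.104 to 0.150. The other alternatives kept each of these counts within 1.5 times. At 3 background SD the number of cells showing a gene moved for 47 named genes and not for 126, and 13 counts of list members in all or no cells moved by over 1.5 times while 31 did not. At the odorant receptor limit 103 named genes moved and 70 did not, and counting all probes of a gene moved 2 of the list counts. No paired analysis was possible because no result comes from a test and the cells and explants are not matched by number. Saturation and signal over background limit what the levels can show.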
